A study of Mus musculus with 8 samples.

Results

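The acetylation of histone H3 at lysine 27 (H3K27ac) was measured in a mouse melanocyte line as 2 lists of chromatin immunoprecipitation sequencing (ChIP-seq) peaks, 1 for each of 2 independent experiments. All peaks of both lists were used, 70427 in replicate 1 and 74680 in replicate 2, which are 145107 of the 311378 peaks in the 6 lists of the series. A peak is a place where the authors found more sequenced tags after immunoprecipitation than a background taken from an input library, which is chromatin of the same line sequenced without an antibody. A peak was called shared when it overlapped a peak of the other replicate by at least 1 bp, and a single-replicate peak otherwise.

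The cells were melan-Ink4a-Arf-1 (melan-a), an immortalised line from normal embryonic mouse skin with the genotype Cdkn2a tm1RDp/tm1RDp, that is, a mutation of the locus that encodes the tumour suppressors p16INK4a and p19ARF. They were grown with the phorbol ester 12-O-tetradecanoylphorbol 13-acetate at 200 nM and cholera toxin at 200 pM, and these agents and the genotype were shared by every library. The antibody was ab4729 from Abcam, and the study also made 2 lists each for SOX10 and for H3K27me3, the trimethylated form of the same lysine. The H3K27ac and H3K27me3 lists were called against 1 input library. A local background from that input was used for H3K27ac only, so the marks share the library but not the background setting. All values describe 1 line, and no other line, untreated culture or wild-type culture is among the samples used here.

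Acetylation of this lysine is placed by the acetyltransferases p300 and CBP and is found on the nucleosomes that flank the start sites of active genes and active enhancers. Runs of many closely spaced acetylated places are known from genes that are strongly expressed in a cell type. A single residue can carry an acetyl group or methyl groups but not both, and the trimethylated form is laid down over wider, inactive regions by Polycomb repressive complex 2. The positions below are on the mm9 build. No mm9 annotation was used here, so regions are given by position without gene names, and the labelled cell type was not checked against the peaks at melanocyte marker genes.

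The libraries were alike in depth, with 45583056 and 44416913 tags kept after duplicates were removed, against 42782172 in the input. Before the removal, 4% and 3% of the tags were redundant. Replicates 1 and 2 had 6.91% and 7.65% of the kept tags inside peaks. The input level under each peak, expressed so that the genome-wide level is 1, was recovered from the authors' p-value. Its median was 1.05 in replicate 1 and 1.07 in replicate 2, and it exceeded 5 at 26 and 25 peaks. Those few peaks held 19793 of the tags in peaks in replicate 1 and 6719 in replicate 2, or 0.629% and 0.198%. They include the 2 peaks with the most tags of replicate 1, which lie on chromosome 11 at 3039435 to 3048949 (8046 tags) and 3031262 to 3038136 (4800 tags). Enrichment there was only 2.30-fold and 3.08-fold, the input level was 26.9 and 25.8 times the genome-wide one, and replicate 2 had no overlapping peak, although it had a peak 119 and 83 bp away. They make up 6 and 5 of the peaks over 1 kb, 4 and 1 of those over 2 kb, and 2 and 0 of those over 5 kb that are counted below.

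Most acetylated peaks were short. The width ran from 71 to 9515 bp in replicate 1 and from 69 to 10563 bp in replicate 2, with the widest of replicate 1 at 6660 bp when the high-input peaks are left out, and with lower and upper quartiles of 216 and 434 bp and of 217 and 446 bp. The median was 291 bp in replicate 1 and 293 bp in replicate 2 (292 ± 1.41, mean and SD, n = 2). Peaks under 200 bp made up 19.3% and 18.1% of the lists. The H3K27me3 lists, called with a longer tag shift and without the local input background, had no peak under 200 bp and medians of 671 and 652 bp. Together the acetylated peaks of replicate 1 covered 26.7 Mb and those of replicate 2 29.1 Mb, or 1.43% and 1.56% of the genome size that the authors set.

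Width and tags carried almost the same information. The number of tags per peak started at 12 in both lists, had a median of 30 in both, and an upper quartile of 49 and 50. Across peaks, Spearman's rho between width and tags was 0.977 in both lists, a description over peaks of 1 library that share its depth and are not independent replicates. The density of tags was accordingly narrow, with medians of 10.6 and 10.4 tags per 100 bp and quartiles of 9.81 to 11.8 and 9.64 to 11.7. A wide peak was thus mainly a longer run of tags and much less a denser one. The summit, the position with the most tags, lay at a median of 48.7% and 48.9% of the peak's length. Its quartiles were wide, at 33.9% to 63.2% in replicate 1 and 34.7% to 63.0% in replicate 2.

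A small group of broad peaks stood at the upper end. Peaks over 1 kb numbered 2623 in replicate 1 and 3187 in replicate 2, which is 3.72% and 4.27% of the peaks. They held 14.2% and 15.7% of the covered bases and 17.5% and 19.2% of the tags in peaks. Over 2 kb there were 277 and 319, and over 5 kb only 8 and 5. The tenth of peaks with the most tags held 32.7% and 33.2% of the tags in peaks.

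The strongest broad peaks outside the high-input places were found in both replicates, but often cut up differently. On chromosome 11, replicate 1 had a single peak from 85646859 to 85653518, with 1109 tags and 16.65-fold enrichment, and replicate 2 had 4 peaks with 1076 tags over the same place. In replicate 2 the widest peak of either list ran from 82973470 to 82984032 on chromosome 6 with 1971 tags, and replicate 1 had 6 peaks with 2365 tags there. A peak on chromosome 6 from 128245958 to 128251676 had 967 tags in replicate 1, against 989 tags in 4 peaks of replicate 2. On chromosome 1, the peak from 78187966 to 78193476 had 920 tags in replicate 1 and 877 tags in 2 peaks of replicate 2. Each sum counts whole overlapping peaks. The sums thus lay close together between replicates on chromosomes 11 and 1 and at 128245958 on chromosome 6, while the number of peaks did not. At 82973470 on chromosome 6 the sums lay further apart. There the 6 peaks of replicate 1 covered 13743 bp, and the peak of replicate 2 covered 10563 bp.

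Acetylated peaks lay close to one another. Of 70402 gaps between neighbouring peaks of replicate 1, 39094 (55.5%) were 1 kb or shorter, and of 74656 gaps of replicate 2, 41184 (55.2%). The median gap was 742 bp in replicate 1 and 755 bp in replicate 2, with lower quartiles of 187 and 185 bp and upper quartiles of 4712 and 4878 bp. Gaps of at most 50 bp, shorter than a nucleosome, made up 10.7% and 10.8%, and gaps of at most 200 bp 25.9% and 26.1%. At the other end 4.87% and 4.57% of the gaps exceeded 100 kb. Both replicates gave nearly the same curve at every distance, and the share of gaps up to 1 kb was 55.3% ± 0.258 (mean and SD, n = 2).

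On a logarithmic scale the gaps had 1 maximum, in the interval from 631 to 794 bp in both replicates, with a long shoulder between about 5 kb and 100 kb. The H3K27me3 lists peaked at longer gaps, from 1000 to 1259 bp in replicate 1 and 1259 to 1585 bp in replicate 2. Their share of gaps up to 1 kb was 32.8% and 34.8%, and their median gap 2435 and 2120 bp. The 2 acetylation lists did not overlap the 2 trimethylation lists in either value. With 2 libraries against 2 the smallest exact two-sided permutation p is 0.333, so that test cannot pass 0.05, and no other test was made. The lists also differed in calling settings, whose part in the difference was not tested.

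**Figure D1:**
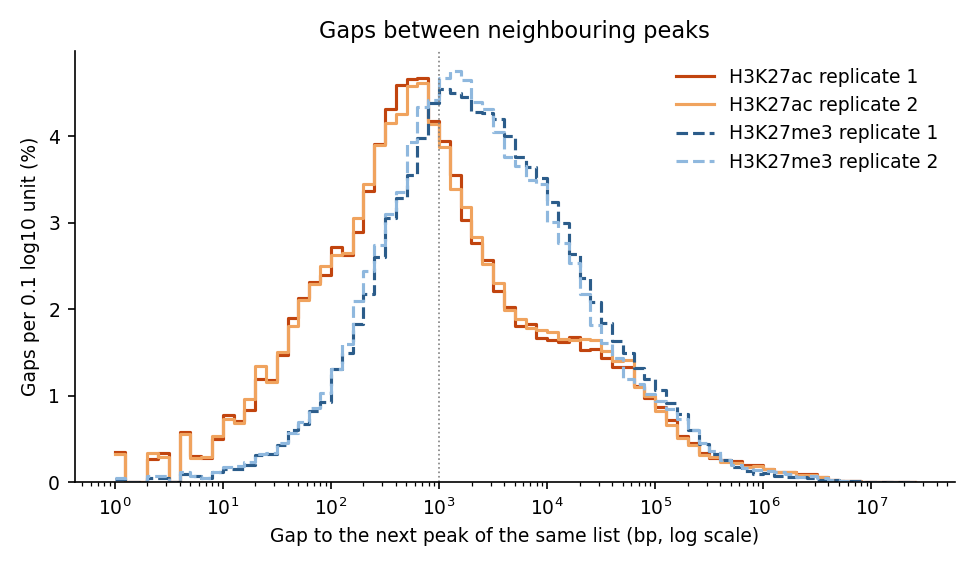
Distribution of the gap from each peak to the next peak of the same list on the same chromosome (x axis, bp, log scale) as a percentage of all gaps in intervals of 0.1 log10 unit (y axis), for the 2 H3K27ac lists (solid) and the 2 H3K27me3 lists (dashed). The dotted line marks 1 kb, below which lie 55.5% and 55.2% of the H3K27ac gaps and 32.8% and 34.8% of the H3K27me3 gaps.

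Distances between summits of neighbouring peaks did not show a single preferred spacing. In bins of 50 bp, the number of neighbouring pairs stayed between 1977 and 2152 from 250 to 650 bp in replicate 1, and between 1981 and 2337 in replicate 2. It then declined to 1382 and 1374 pairs at 950 to 1000 bp and to 360 and 351 in the bin that ends at 2000 bp. Summits closer than 150 bp were rare, with 269 and 234 pairs, which the width of the peaks themselves limits. Among neighbours separated by at most 1 kb, the median distance between summits was 665 and 668 bp.

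To describe domains, peaks of 1 list were joined into stretches wherever the gap was at most 1 kb. This gave 31333 stretches in replicate 1 and 33496 in replicate 2 (32414.5 ± 1529, mean and SD, n = 2). More than 1 in 2 were solitary peaks, 57.5% and 57.0% of the stretches, but these held only 25.6% of the peaks in each list. Stretches of at least 3 peaks were 24.1% and 24.3% of the stretches, and held 58.0% and 57.7% of the peaks and 67.0% and 65.6% of the tags in peaks. In the H3K27me3 lists joined in the same way, 28.9% and 31.1% of the peaks were in stretches of at least 3. At this joining distance the acetylated genome was therefore mostly solitary places by number, and mostly runs of several peaks by amount. Both shares depended on the distance. Joined over 500 bp, stretches of at least 3 peaks held 40.5% and 40.2% of the peaks and 49.8% and 49.2% of the tags in peaks. Joined over 12500 bp, solitary peaks were 34.6% and 33.7% of the stretches.

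The longest runs were few and strong. Stretches of at least 10 peaks numbered 750 in replicate 1 and 737 in replicate 2, 2.39% and 2.20% of all stretches. They held 15.6% and 14.2% of the peaks and 21.3% and 19.3% of the tags in peaks. The median span of these stretches was 9233 and 9418 bp. Over all of them together, the peaks of each list covered 66.4% of the span in replicate 1 and likewise 66.4% in replicate 2. The mean number of tags per peak was also taken for each stretch. Its median over stretches was 25 for solitary peaks in both lists and 37 and 37.3 for stretches of 3 peaks. For stretches of at least 10 it was 55.3 and 55.1. A few strong peaks can raise such a mean, so these values are not medians over peaks. Within stretches of at least 5 peaks, the 2 end peaks were weaker than those between them. Counted over peaks, the median of the end peaks was 32 tags in replicate 1 and 31 in replicate 2, against 39 and 38 for the inner peaks.

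Individual long stretches kept their place in both replicates, while the joins within them moved. The longest of replicate 1 ran over 47.8 kb on chromosome 2 from 167561749 to 167609512, with 61 peaks and 4874 tags. Replicate 2 had 48 peaks with 4847 tags in the same interval, but divided into 5 stretches, the longest of 22.9 kb. The second longest of replicate 1 lay on chromosome 6 from 82946998 to 82989312 (42.3 kb, 23 peaks, 6253 tags). It coincided with the longest of replicate 2, from 82946953 to 82987155 (40.2 kb, 21 peaks, 6029 tags), and was the most completely filled of the longest stretches, at 91.0% and 92.5% covered by peaks. On chromosome 4, replicate 1 had 50 peaks with 3530 tags from 154483614 to 154525800, and replicate 2 had 41 peaks with 3562 tags there in 4 stretches.

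Other long stretches followed the same pattern. A stretch on chromosome 6 from 114810156 to 114844511 was 34.4 kb long in replicate 1 (4172 tags) and 33.1 kb long in replicate 2 (3767 tags). On chromosome 19, replicate 2 had 32 peaks with 4575 tags from 10333763 to 10373477, and replicate 1 had 29 peaks with 4459 tags in 5 stretches. On chromosome 17, 52 peaks of replicate 2 with 2740 tags ran from 84469888 to 84503309, beside 46 peaks with 2634 tags in replicate 1. The tag sums of the replicates lay close together on chromosomes 19 and 17. On chromosome 6 they lay further apart, also within the same bounds. Within those of replicate 1 the sums were 4172 tags in replicate 1 and 3743 in replicate 2. Within those of replicate 2 they were 4073 and 3767.

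A wider joining distance of 12500 bp, a distance often used to join enhancers, gave 12337 and 13210 stretches. Of these, 75 and 79 were over 100 kb long, and stretches of at least 10 peaks then held 60.1% and 59.0% of all peaks. The same interval near the end of chromosome 7 was longest in both lists. It ran from 152118112 to 152436152 in replicate 1, with 320 peaks and 17204 tags over 318.0 kb, and from 152119312 to 152436436 in replicate 2, with 286 peaks and 16322 tags over 317.1 kb. The next ones, on chromosome 8 from 128998027 to 129261586, on chromosome 5 from 139324740 to 139560615 and on chromosome 3 from 79657573 to 79876419, were 264, 236 and 219 kb long in replicate 1. In replicate 2 their longest counterparts measured 239, 240 and 236 kb, so the order among these 3 differed between replicates.

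Inside the chromosome 7 interval acetylation was dense but uneven. Within the bounds set by replicate 1, peaks covered 45.0% of the bases in replicate 1 and 42.8% in replicate 2, and the median gap was 235 and 334 bp. The longest gap was 9597 and 7349 bp. Single peaks held between 13 and 404 tags in replicate 1 and between 14 and 399 in replicate 2. Shared peaks were 234 of 320 (73.1%) in replicate 1 and 218 of 285 (76.5%) in replicate 2. The strongest peaks fell into several groups at the same positions in both replicates, with runs of weak peaks between them.

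**Figure D2:**
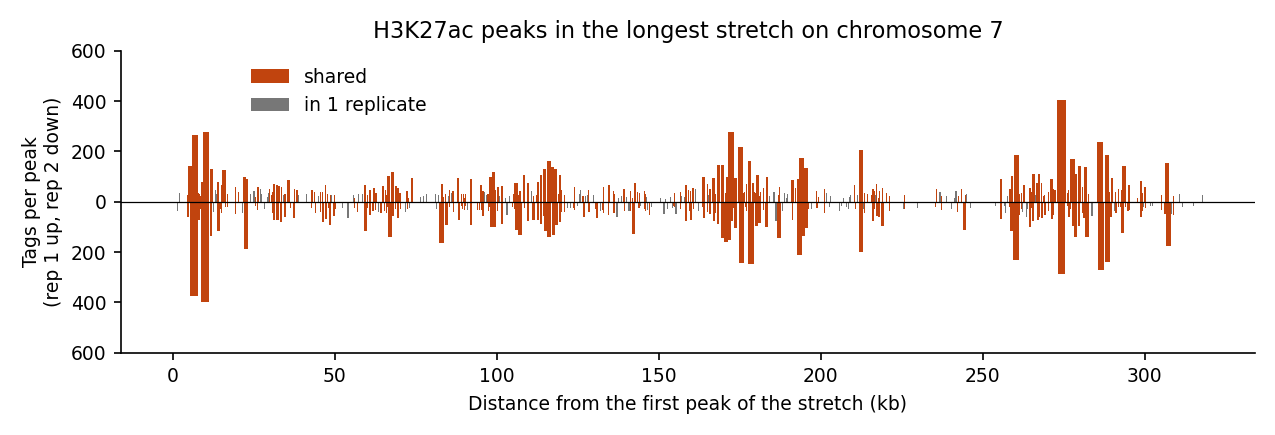
H3K27ac peaks in the longest stretch joined over gaps of up to 12500 bp, on chromosome 7, by distance from the first peak of replicate 1 (x axis, kb). Bars have the width of the peak and the height of its tags (y axis, tags per peak), with replicate 1 upwards and replicate 2 downwards. Shared peaks are orange and single-replicate peaks grey; the tallest bars, up to 404 and 399 tags, are shared and the grey bars are low.

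Shared peaks were 45095 of replicate 1 (64.0%, Wilson 95% interval 63.7 to 64.4) and 44493 of replicate 2 (59.6%, 59.2 to 59.9). These intervals cover counting error only, and neighbouring peaks are not independent. Shared peaks held 79.1% and 76.6% of the tags in peaks, so the single-replicate peaks, 25332 and 30187 in number, were mainly weak ones. Their median width was 227 and 233 bp, against 354 and 368 bp for shared peaks, and their median tag count was 23 in both lists, against 39 and 41. Enrichment differed less, with median folds of 7.87 and 7.54 for single-replicate peaks and 8.45 and 8.30 for shared ones.

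The share of shared peaks was much higher among wider peaks. Up to 150 bp it was 28.1% in replicate 1 and 26.96% in replicate 2, and between 300 and 400 bp 70.3% and 63.2%. Between 500 and 750 bp it reached 93.7% and 90.2%, and between 1 and 2 kb 99.9% and 99.7%. A wider peak can meet another by position more easily, so part of this difference follows from the definition. Over 2 kb, all 319 peaks of replicate 2 were shared, and all but 3 of 277 in replicate 1. These 3 were the 2 high-input peaks of chromosome 11 described above and a peak on chromosome X from 166431861 to 166434440 with an input level of 12.7.

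The share also differed by the distance to neighbours. An overlap of 1 bp is met more easily by position where peaks are crowded, and what position alone would give was not tested. Peaks with another peak of their own list within 100 bp were shared in 80.7% and 77.9% of cases, and those whose nearest neighbour lay 2 to 5 kb away in 34.1% and 33.4%. Between 5000 and 12500 bp it was 37.5% and 32.0%, the lowest value of replicate 2. For more remote peaks it was higher again in both lists, and more so in replicate 1, at 47.0% and 35.6% between 12500 and 100000 bp and 48.7% and 37.0% beyond that. The intervals at the longest distance, 45.1 to 52.3 and 33.4 to 40.8, did not overlap. With 2 libraries it cannot be said which value is typical.

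**Figure D3:**
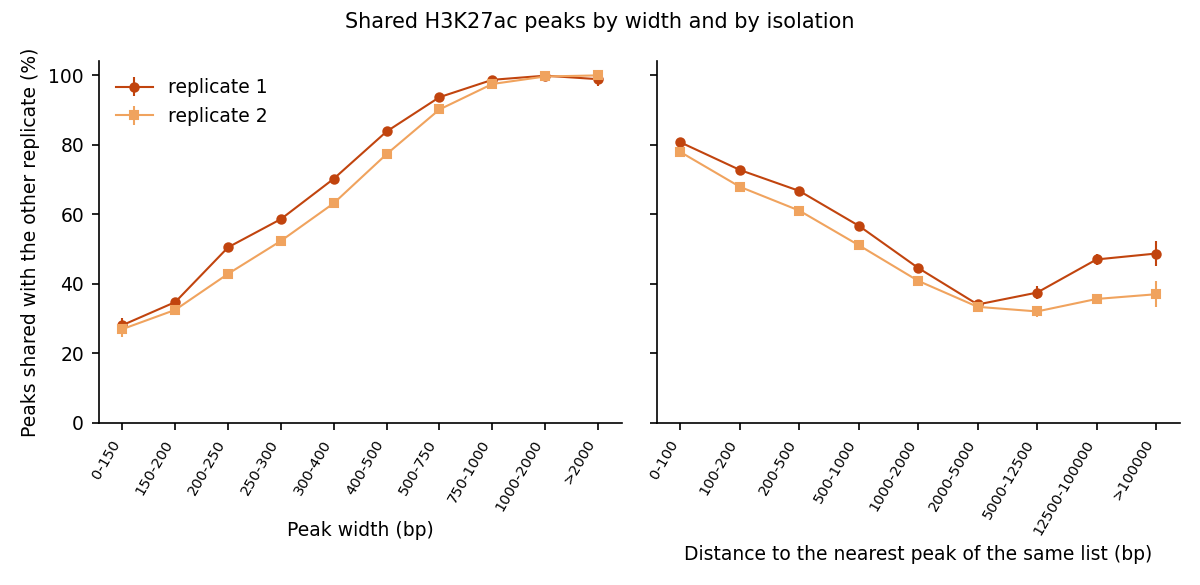
Percentage of peaks that overlap a peak of the other replicate (y axis) by peak width (left, bp) and by distance to the nearest peak of the same list (right, bp), for replicate 1 (circles) and replicate 2 (squares). Vertical lines are Wilson 95% intervals, mostly smaller than the symbols. The share climbs from 28.1% and 26.96% for the narrowest peaks to over 98% for the widest, and is lowest by isolation at 34.1% in replicate 1 (2000 to 5000 bp) and 32.0% in replicate 2 (5000 to 12500 bp).

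Close neighbours also went with a higher share among peaks with similar numbers of tags. What overlap by position alone would give was not tested here either. With over 20 and up to 30 tags, peaks with a neighbour within 500 bp were shared in 62.6% and 57.5% of cases. With a neighbour at 500 bp to 5 kb it was 39.0% and 34.7%, and with none within 5 kb 38.3% and 25.9%. With over 50 and up to 100 tags the 3 shares were 94.6%, 88.6% and 92.6% in replicate 1 and 92.5%, 85.3% and 76.9% in replicate 2. Above 100 tags nearly every peak was shared whatever its neighbours, from 98.96% to 100% in replicate 1 and from 98.0% to 99.6% in replicate 2.

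Larger stretches nearly always contained a place found in both replicates. A solitary peak was shared in 41.3% of cases in replicate 1 and 36.3% in replicate 2. Among stretches of 2 peaks, 78.4% and 72.4% had at least 1 shared peak, and among stretches of 3 peaks 93.7% and 90.8%. All 750 and 737 stretches of at least 10 peaks had one. More peaks give more chances of an overlap, and what chance would give was not tested. Counted by peak, 82.2% and 82.0% of those in stretches of at least 10 were shared. Within stretches of at least 5 peaks, inner peaks were shared in 81.9% and 81.0% of cases and end peaks in 67.2% and 64.0%. Inner peaks have neighbours on both sides, and overlap by position alone was not tested for these shares.

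Most single-replicate peaks were near acetylation of the other replicate. The nearest peak of the other list was within 200 bp for 25.1% and 22.7% of them, within 1 kb for 59.7% and 55.6% (57.7% ± 2.96, mean and SD, n = 2), and within 12500 bp for 92.5% and 88.6%. The median distance was 656 bp in replicate 1 and 762 bp in replicate 2. To the nearest peak of their own list it was similar, at 687 and 641 bp. What the general crowding of peaks would give was not tested. A shared peak of the same 1-kb stretch accompanied 45.5% and 44.4% of the single-replicate peaks. Single-replicate peaks that were both solitary and over 1 kb from any peak of the other list numbered 7407 and 9201, which is 10.5% and 12.3% of all peaks. When the lists were merged and joined over 1 kb, 19812 of 38514 stretches (51.4%) held peaks of both replicates.

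**Figure D4:**
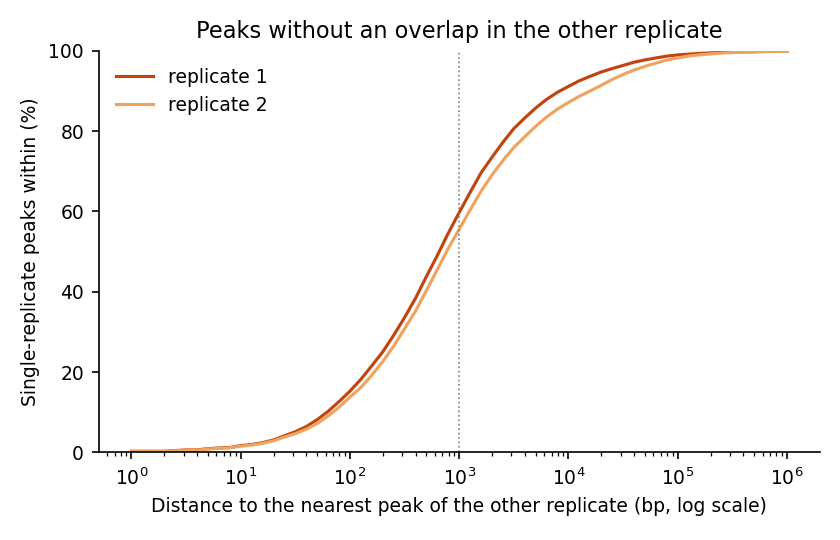
Cumulative percentage of single-replicate peaks (y axis) that lie within a given distance of the nearest peak of the other replicate (x axis, bp, log scale), for replicate 1 and replicate 2. The dotted line marks 1 kb, where the curves reach 59.7% and 55.6%.

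Strong single-replicate peaks were rare. Of 5156 peaks with at least 100 tags in replicate 1, 19 (0.369%) had no overlap in replicate 2, and of 6075 in replicate 2, 40 (0.658%) had none in replicate 1. In replicate 1, 18 of the 19 had a peak of the other list within 1 kb and none was over 5 kb away. Examples are the peaks on chromosome 6 from 146894389 to 146895380 (136 tags) and on chromosome 7 from 126131775 to 126132991 (135 tags). Their input levels were 1.70 and 1.34, and their nearest peaks of replicate 2 were 43 and 60 bp away. In replicate 2, 25 of the 40 were within 1 kb, such as the peak on chromosome 14 from 102007066 to 102008211 (154 tags), 84 bp from replicate 1.

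The remaining strong peaks of replicate 2 included 12 that lay over 5 kb from replicate 1. The one with the most tags was on chromosome 8 from 72239898 to 72240830, with 119 tags, 11.14-fold enrichment and an input level of 1.00, 32.8 kb from the nearest peak of replicate 1. A second on chromosome 1 from 129999975 to 130000911 had 118 tags and lay 88.8 kb away, and another on chromosome 2 from 34680743 to 34681730 had 116 tags and lay 21.9 kb away. The strongest remote peak of replicate 1 was weaker, with 79 tags on chromosome 13 from 74666814 to 74667241, 35.0 kb away and at an input level of 4.08. Peaks with at least 100 tags over 5 kb from the other list thus numbered 12 in replicate 2 and 0 in replicate 1. Not all of the 12 had a low input level. The peak on chromosome 6 from 30754761 to 30755411 had 112 tags and 3.87-fold enrichment at an input level of 4.43.

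The lists often divided the same place differently. In replicate 1, 7092 peaks (10.1%) overlapped at least 2 peaks of replicate 2, and 7547 (10.1%) of replicate 2 did so in replicate 1. These bridging peaks had median widths of 579 and 643 bp, against 329 and 336 bp for peaks that overlapped 1. The gaps that they spanned in the other list were short, with medians of 48 and 52 bp. All but 2 were at most 1 kb long, and these were 19.0% of the gaps up to 1 kb in replicate 2 and 21.6% of those in replicate 1. About 1 in 5 short gaps of a list was therefore spanned by a peak of the other. Merging both lists gave 36655 regions with peaks of both, of which 10041 (27.4%) held more than 1 peak from at least 1 replicate, up to 16 in all.

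Where 1 peak of each list matched only the other, positions were close but not exact. There were 26614 such pairs, 37.8% of replicate 1 and 35.6% of replicate 2. Their starts differed by a median of 73 bp, their ends by 75 bp and their summits by 91 bp, and 53.5% of the summits were within 100 bp. The log2 ratio of tags, replicate 2 over replicate 1, had a median of 0.04 and quartiles of -0.37 and 0.46, beside -0.04 for the ratio of kept tags. In 13.7% of the pairs the tags differed by more than 2-fold. Across pairs Pearson's r of log2 tags was 0.696 and Spearman's rho 0.602, which are descriptions over regions of 2 libraries, and only over pairs that both lists had called.

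The chromosomes differed in density in the same way in both lists. Among the 19 numbered chromosomes, the number of peaks per Mb was lowest on chromosome 13, at 18.7 in replicate 1 and 19.5 in replicate 2, and highest on chromosome 11, at 51.4 and 54.6, with medians of 31.3 and 33.1. The length used is from the first to the last peak of any of the 4 histone lists. Chromosome 17 followed chromosome 11, at 38.2 and 41.4. Crowding differed less than density: gaps up to 1 kb were 46.7% and 45.0% on chromosome 13 and 58.8% and 59.2% on chromosome 4, the lowest and highest of the numbered chromosomes. Median widths stayed between 265 and 294 bp in replicate 1 and between 273 and 303 bp in replicate 2, with 1 exception.

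The exception was chromosome 6. Its median width was 368 bp in replicate 1 and 367 bp in replicate 2, and its median tag count 41 and 40, against 27 to 31 on the other numbered chromosomes. Its share of shared peaks, 68.5% and 65.5%, was the highest of the numbered chromosomes. Enrichment was the lowest, at a median of 6.88-fold and 6.60-fold, against 8.0 to 8.33 and 7.71 to 7.99 elsewhere. The density of peaks was ordinary, at 32.7 and 34.3 per Mb. The input level moved with these values. Its median was 1.4 in both replicates on chromosome 6, against 1.01 to 1.08 and 1.01 to 1.09 on the other numbered chromosomes. Only 1.17% and 1.14% of its peaks were at the genome-wide level, which acts as a floor of the measure, against 29.4% to 48.6% elsewhere. Whether the copy number of the chromosome differs in this line was not tested. Several of the widest peaks and longest stretches named above lie on chromosome 6, and without it the median width was 286 and 288 bp.

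**Figure D5:**
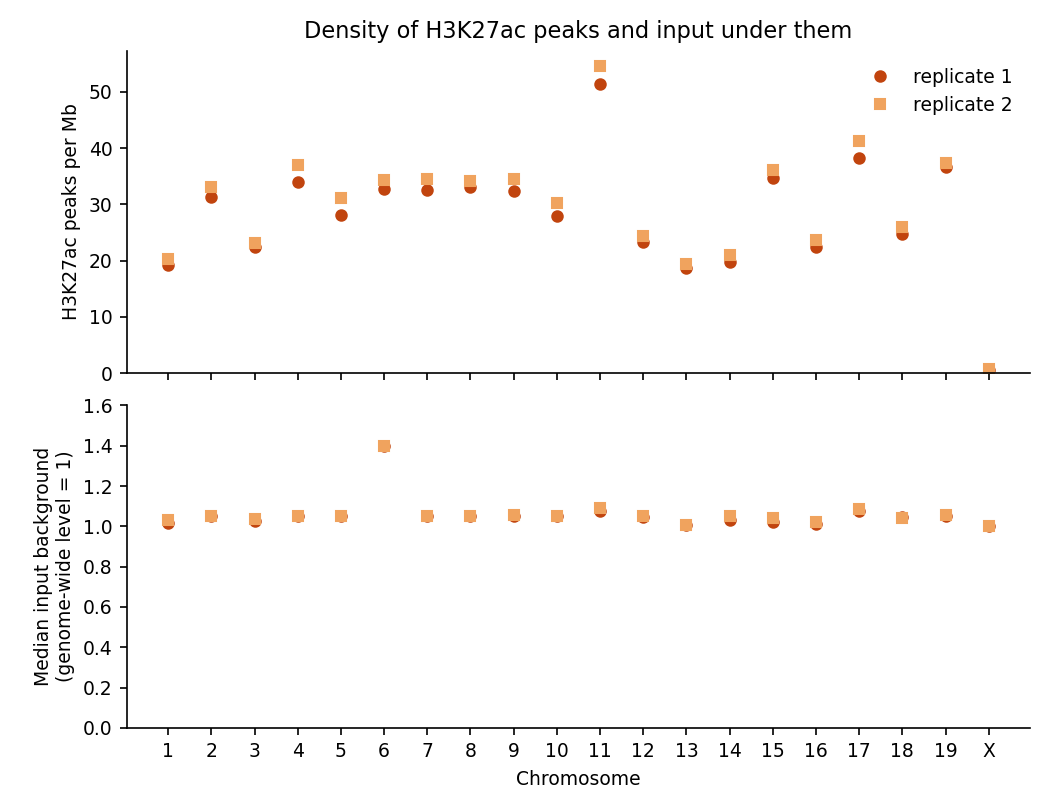
Number of H3K27ac peaks per Mb (top) and median input level under the peaks, with the genome-wide level set to 1 (bottom), on each numbered chromosome and X, for replicate 1 (circles) and replicate 2 (squares). Density is highest on chromosome 11, at 51.4 and 54.6 per Mb, and under 1 on X, and the input level stands out on chromosome 6 at 1.4.

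Chromosome X was nearly empty. It had 97 peaks in replicate 1 and 125 in replicate 2, or 0.604 and 0.778 per Mb, which is 51.8-fold and 42.6-fold below the median of the numbered chromosomes. Those peaks were weaker and more scattered than elsewhere, with a median width of 207 and 214 bp, 20 tags in both replicates, and 19.8% and 12.1% of gaps up to 1 kb. Only 31 (32.0%, Wilson 95% interval 23.5 to 41.8) and 30 (24.0%, 17.4 to 32.2) were shared. Median enrichment was 7.87-fold and 7.71-fold, beside 8.075 and 7.76 for the median numbered chromosome. The H3K27me3 lists had fewer peaks still there, at 0.230 and 0.143 per Mb. The input level was at the floor for 90.7% and 87.2% of the H3K27ac peaks. The genome-wide level acts as a floor, and the measure was below it at only 3.12% and 2.68% of all peaks. The amount of input on X, and with it the number of X copies, therefore cannot be told apart from a lack of acetylation. No H3K27ac peak lay on Y or on the mitochondrial genome.

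The fullest windows of X were the same in both lists. The one from 137 to 138 Mb held 13 peaks in replicate 1 and 12 in replicate 2, of which 9 and 7 were shared. A peak there from 137531626 to 137532060 had 87 tags and 20.1-fold enrichment in replicate 1, at an input level of 1.00. Replicate 2 had 1 peak over it, with 55 tags. The window from 71 to 72 Mb held 10 and 13 peaks, 3 shared in each. The 3 peaks with the most tags on X in replicate 1, and 3 of the 5 with the most in replicate 2, lay between 166429836 and 166442675. They had 204 to 999 tags in replicate 1 and 78 to 474 in replicate 2, at input levels of 10.7 to 12.7 and 6.41 to 11.4, and folds of 2.85 to 3.79 and 3.22 to 4.15.

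At the scale of 1 Mb, acetylation was concentrated in a minority of the genome. Of 2419 windows on the numbered chromosomes, 656 (27.1%) had no peak in replicate 1 and 621 (25.7%) none in replicate 2, and 583 were empty in both. The median window held 10 and 11 peaks, and the fullest, the last of chromosome 7 that contains the longest stretch, held 355 and 333. The 241 windows with the most peaks held 46.5% and 45.8% of the peaks. Peaks per window had a Pearson's r of 0.991 and a Spearman's rho of 0.986 between the replicates, across windows that share mappability and base composition.

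Long gaps made up much of the genome. On the numbered chromosomes both replicates had 489 gaps over 1 Mb, adding up to 1124 and 1099 Mb, or 46.7% and 45.7% of the length between the first and last peaks. In the merged lists 467 such gaps were left, or 43.3%. The longest on a numbered chromosome was on chromosome 14 from 87816811 to 99443968 in replicate 1 and from 87817461 to 99444131 in replicate 2, 11.6 Mb in both. Another on the same chromosome, from 106456698 to 115441677 in replicate 1, measured 8.98 Mb, and 8.99 Mb in replicate 2. The longest of all lay on X, from 105086969 to 133276736 in replicate 1 (28.2 Mb) and from 103399437 to 131136195 in replicate 2 (27.7 Mb). On chromosome 16, a gap of 10.4 Mb from 66007515 to 76373705 in replicate 1 was not among the 5 longest of replicate 2. Edges of the chromosome 14 gaps thus agreed to within a few kb, whereas the chromosome 16 gap was interrupted by acetylation in replicate 2.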

How the data were processed

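Peaks were called by the authors in each library with MACS 1.4.2 at a p cutoff of 1e-05, with at most 1 tag kept per position, the larger library scaled to the smaller, and a local background from input windows of 1000 and 10000 bp, per the file headers. For H3K27ac the tag shift was set from a distance of 50 and 51 bp between strands, about the tag length of 51 bp, per the file headers, so tags were hardly moved to the fragment centre; its effect on width and splitting was not tested. The H3K27me3 lists used 200 bp and no local background, per the file headers. The build is mm9 per the submitters' processing notes. No source used here names the aligner.

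Each deposited list gives positions in bp, the count of tags per peak, -log10 of the p multiplied by 10 (the deposited cutoff is thus 50), the authors' fold enrichment ratio at the summit and their FDR in percent. As values of single peaks they served only for description, ranking and filters. Replicate numbers come from the sample titles.

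Overlaps, gaps, joined stretches and 1-Mb windows were computed with Python 3.11.15, numpy 2.4.6, pandas 2.3.3 and scipy 1.17.1, and drawn with matplotlib 3.10.9. The input level is the Poisson mean at which the scaled tags of a peak give its p, divided by the genome-wide input level. It was within 1% of that floor at 36.3% and 35.6% of peaks and below it at 3.12% and 2.68%. The computations were tested on simulated data. Regions were named as the 5 with the most tags, widths, lengths or gaps per list; places with input under 5 times the level, single-replicate peaks over 5 kb from the other list and those of X were added after seeing the data. The members and lists were chosen with earlier results of these data known. No test across libraries was made. The gene tables at hand are on another build and were not used. Peaks on unplaced sequences (23 and 32) entered all counts except those by chromosome.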

Additional observations from a re-analysis of the deposited data

How the results depend on the processing

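Of 43 alternative values for 6 results (the share of shared peaks, the median width, the share of gaps up to 1 kb, the number of stretches, the share of single-replicate peaks within 1 kb of the other list, and the density of X over the median of the numbered chromosomes, 0.0214), 35 are means of 2 lists, of which 16 stayed within the spread between replicates or, for the number of stretches, within 1.5 times, and 19 moved. The other 8 leave out 1 list, and with 2 lists such a value cannot leave that spread, so they say nothing of stability. A stricter p cutoff of 1e-10, which left 28979 and 31172 peaks, gave 67.9%, 483.5 bp, 44.0%, 16857 stretches, 48.6% and 0.00918. An FDR of at most 1% gave 290.0 bp and 54.3% of gaps, and leaving out chromosome 6 gave 287 bp. Overlap of 50% of the shorter peak gave 54.4% shared, and a summit inside the other list's peak 49.9%. Gaps up to 500 bp were 41.9% and up to 5 kb 75.4%. Joining over 5 kb gave 17877 stretches and over 12500 bp 12773.5. Joining over 500 bp gave 42187.5, outside the spread between replicates but within the 1.5 times allowed, so it was not counted as moved. Single-replicate peaks within 500 bp were 42.0% and within 5 kb 83.4%. For X, tags per Mb gave 0.0169 and covered bases 0.0147. Leaving out each replicate in turn gave 291 to 293 bp, 55.2% to 55.5% of gaps, 31333 to 33496 stretches and 0.0193 to 0.0235 for X; shared peaks and single-replicate distances need both lists. Leaving out the peaks with over 5 times the input level, chosen after seeing the data, moved none of the 6. The causes were not tested. The weakest peaks held 12 tags; what depth does to their detection was not tested. No paired analysis was possible because the results come from no test, the values of the H3K27me3 lists included.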
